A study of Mus musculus with 57 samples.

Results

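The nuclear genes for subunits of the respiratory chain and of ATP synthase were followed in ribosome-bound messenger RNA of mouse cortical astroglia from the first postnatal day to adulthood. Members were chosen by gene symbol. Of 21118 genes in the table, 98 began with Ndufa, Ndufb, Ndufc, Ndufs, Ndufv, Sdha to Sdhd, Uqcr, Cox4i, Cox5, Cox6, Cox7, Cox8 or Atp5. Of these, 11 assembly factors and 3 pseudogene symbols were left out. The remaining 84 members were 38 genes of complex I, 4 of complex II, 8 of complex III, 17 of complex IV and 17 of complex V. All 84 had a mean of at least 1 CPM (counts scaled to a common library size) over the libraries, and 74 had at least 100 CPM. Symbols do not follow the protein's place in every case. Ndufa4 stands here with complex I by its name, although the protein is now counted with complex IV. Atp5s and Atp5sl carry the Atp5 prefix but are not known as structural subunits of ATP synthase.

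Complexes I to IV pass electrons from NADH and succinate to oxygen in the inner mitochondrial membrane, and complexes I, III and IV pump protons as they do so. Complex V, the ATP synthase, uses the proton gradient to make ATP. Most subunits are encoded in the nucleus, while a small core is encoded by mitochondrial DNA. Complex IV has tissue-specific isoforms of several subunits, which are best known from heart, skeletal muscle, lung and testis. Astrocytes are known for high glycolysis and also hold mitochondria out to their fine processes.

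The RNA was pulled down with an antibody to green fluorescent protein (GFP) from cortex of Aldh1l1-L10-GFP mice on a C57BL/6 background, in which a tagged ribosomal protein L10 is driven by Aldh1l1, a gene of astrocytes. All groups carried this transgene, and no untagged input RNA was analysed here. Each of the 53 libraries stood for 1 animal. There were 8 libraries of postnatal day 1 (P1), 8 of P4, 12 of P7, 10 of P14, 6 of P35 and 9 of adults, whose age in days the labels do not give. The labelled sexes were equal in number except at P7, with 8 females and 4 males, and in adults, with 4 females and 5 males. By the first digit of its replicate number a library belonged to set 1, 2, 3, 4 or 6, and the 4 P7 libraries known from the second sequencing run alone formed set S.

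Total counts ran from 14768178 to 48541139. P1 female 4, P7 female 40 and P14 male 4 had at least 10 counts in 10085, 13834 and 14530 genes, against 15531 or more elsewhere, and Aldh1l1 stood at 10.1 CPM in P1 female 4 against at least 32.8 CPM in every other library. For 5 libraries the description carries the letter of the other sex: adult male 60, P35 male 10, and females 40, 30 and 10 of P7. Markers of mature astrocytes and of neurons were both present at either end of the age range, with summed levels of 1034 to 7226 CPM over 18 astrocyte markers and 1636 to 8700 CPM over 16 neuronal markers at P1, and 4821 to 30893 CPM and 3460 to 14207 CPM in adults. Levels below are CPM on library sizes scaled by TMM, and changes are log2 changes from edgeR's quasi-likelihood test with the replicate set in the model, as the mean of the labelled sexes. Set S has P7 libraries alone, so its set term takes up their mean level, which does not enter the fitted age changes. A gene is called at a Benjamini-Hochberg adjusted p under 0.05 over all 21118 genes.

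Promoter sequence was looked at for the members, because a large number of them moved together with age. RefSeq windows on GRCm38.p6 matched 70 of the 84 members, 67 by symbol and 3 by an older name, and the 250 bases before the start were searched on both strands. Windows were not matched for 14 members, among them Cox4i1, Cox4i2, Cox6a2 and Sdhc. GCGCATGC, core letters of a site of NRF1, a regulator of nuclear genes for mitochondria, was found in 8 members (11.4%) and in 2.56% of 27025 genes. These 8 were Atp5g2, Atp5k, Atp5l, Cox6a1, Ndufa11, Ndufa6, Ndufa8 and Sdhb, of which Atp5g2, Atp5l and Ndufa11 were not called from P1 to adult. The 27025 genes, meant by all genes in this paragraph, are those with a window, whatever their level in these libraries. CCGGAAGT, an ETS sequence bound by GABP, was found in Uqcr11, Uqcrh and Atp5h (4.29% against 3.23% of all genes). AAGATGGC, a sequence of YY1, was found in Atp5j and Atp5sl (2.86% against 1.83%), and TCAAGGTCA, a site of estrogen-related receptors, in Atp5g3 (1.43% against 0.422%). More common letters were TATAAA (8.57% of members against 14.3%), the E-box CAGCTG (8.57% against 14.7%), the GC box GGGCGG (37.1% against 35.4%) and CCAAT (44.3% against 37.5%). A match describes letters and not binding, and the median GC content of these windows was 56.4% in members against 52.4% in all genes.

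The 4 sequences below are shown because they hold the NRF1 and ETS letters in members of high level (Cox6a1 and Uqcr11), and because they set the widespread Cox8a beside Cox8b, the isoform of heart and muscle, which had the largest fitted change. All 4 genes lie on the minus strand, and the sequences run 5′ to 3′ up to the base before the start, with every match to the 8 searched sequences in capitals. They cover chr5:115348959-115349208 (Cox6a1), chr10:80406822-80407071 (Uqcr11), chr19:7217617-7217866 (Cox8a) and chr7:140900447-140900696 (Cox8b).
Cox6a1: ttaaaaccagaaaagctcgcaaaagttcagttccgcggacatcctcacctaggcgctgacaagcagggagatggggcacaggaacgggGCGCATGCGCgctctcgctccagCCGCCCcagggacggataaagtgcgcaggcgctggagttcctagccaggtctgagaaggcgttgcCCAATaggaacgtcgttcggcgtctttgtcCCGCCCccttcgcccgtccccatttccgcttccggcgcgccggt
Uqcr11: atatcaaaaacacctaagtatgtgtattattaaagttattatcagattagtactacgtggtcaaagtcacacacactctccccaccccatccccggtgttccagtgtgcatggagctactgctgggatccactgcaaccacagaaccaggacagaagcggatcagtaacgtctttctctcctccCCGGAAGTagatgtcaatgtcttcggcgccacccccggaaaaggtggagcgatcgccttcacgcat
Cox8a: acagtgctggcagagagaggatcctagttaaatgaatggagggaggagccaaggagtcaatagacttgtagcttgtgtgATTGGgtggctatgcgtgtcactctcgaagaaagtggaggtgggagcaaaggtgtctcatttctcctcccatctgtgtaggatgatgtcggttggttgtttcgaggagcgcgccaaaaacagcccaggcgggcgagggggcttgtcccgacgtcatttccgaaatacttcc
Cox8b: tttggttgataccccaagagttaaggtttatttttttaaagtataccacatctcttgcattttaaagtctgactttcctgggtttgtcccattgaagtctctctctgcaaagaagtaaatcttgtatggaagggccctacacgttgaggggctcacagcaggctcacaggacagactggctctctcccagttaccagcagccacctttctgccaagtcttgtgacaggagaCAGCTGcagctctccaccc
In Cox6a1 the first run in capitals holds the NRF1 letters on both strands, overlapping each other, and the rest are GC boxes and a CCAAT box. The capitals in Uqcr11 are the ETS sequence, those in Cox8a a CCAAT box on the other strand, and those in Cox8b an E-box.

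Per kilobase of exon, the messages of complex III stood highest, with a median of 335 CPM per kb over its members. Exon length here counts each annotated exon base of a gene once over all its transcripts. It can exceed the length of the message, so the order per kilobase depends on the annotation. The medians were 263 for complex V, 242 for complex IV, 191 for complex I and 157 for complex II. The highest members were Cox8a at 1967 CPM per kb, Cox6a1 at 1312, Cox6b1 at 1072 and Uqcr11 at 1036, all small subunits. The lowest were isoforms or paralogs, namely Ndufa4l2 at 3.16 CPM per kb, Cox7b2 at 3.94, Cox8b at 3.96, Cox4i2 at 8.03, Cox6a2 at 9.65, Cox6b2 at 11.6 and Cox7a1 at 12.7. Sdha, the catalytic flavoprotein of complex II, stood at 68.0 CPM per kb. Exons of 23 members overlap a gene on the other strand, and since the strand setting of the counting is not given in the sources used here, reads of such pairs cannot be told apart.

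From P1 to adult, 66 of the 84 members rose and 0 fell, a share of 78.6% beside 21.8% of all genes that rose and 19.5% that fell. Estimates were negative in 2 members, Ndufa4l2 and Cox7a2l, and the calls were upward in all 72 members called by DESeq2 and all 67 called by voom. The median log2 change was 0.79 over the members and 0.06 over all genes. Rises were called in 30 of 38 members of complex I (median 0.79), 4 of 4 of complex II (0.72), 7 of 8 of complex III (0.84), 15 of 17 of complex IV (0.93) and 10 of 17 of complex V (0.58). The median changes of complexes II and III rest on few genes, and no difference between complexes was tested. In bulk RNA, a change in how many cells of a type contribute and a change of RNA per cell cannot be told apart. Without the replicate set in the model, 27 members were called from P1 to adult, all upward, at a median of 0.85, and 45 to 68 were called with each of the 17 P1 and adult libraries left out in turn. With a library left out, 3987 to 4598 of all genes were called upward. The 3987 came without adult female 4, the adult library with the highest mean level in every complex. Members not called without it included Ndufa2, Ndufc2, Sdhd, Cox6a1, Atp5g3, Cox6b1, Cox7a2 and Ndufa4. Of these, Ndufa2, Cox6b1 and Ndufa4 also lost their call without some other libraries. No count over all genes is given here for the fit without the set. Libraries of P1 and adult did not overlap in 3 members (Ndufa10, Cox7b2 and Cox8b), or 3.57%, beside 3.58% of all genes that rose without overlap.

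**Figure D1:**
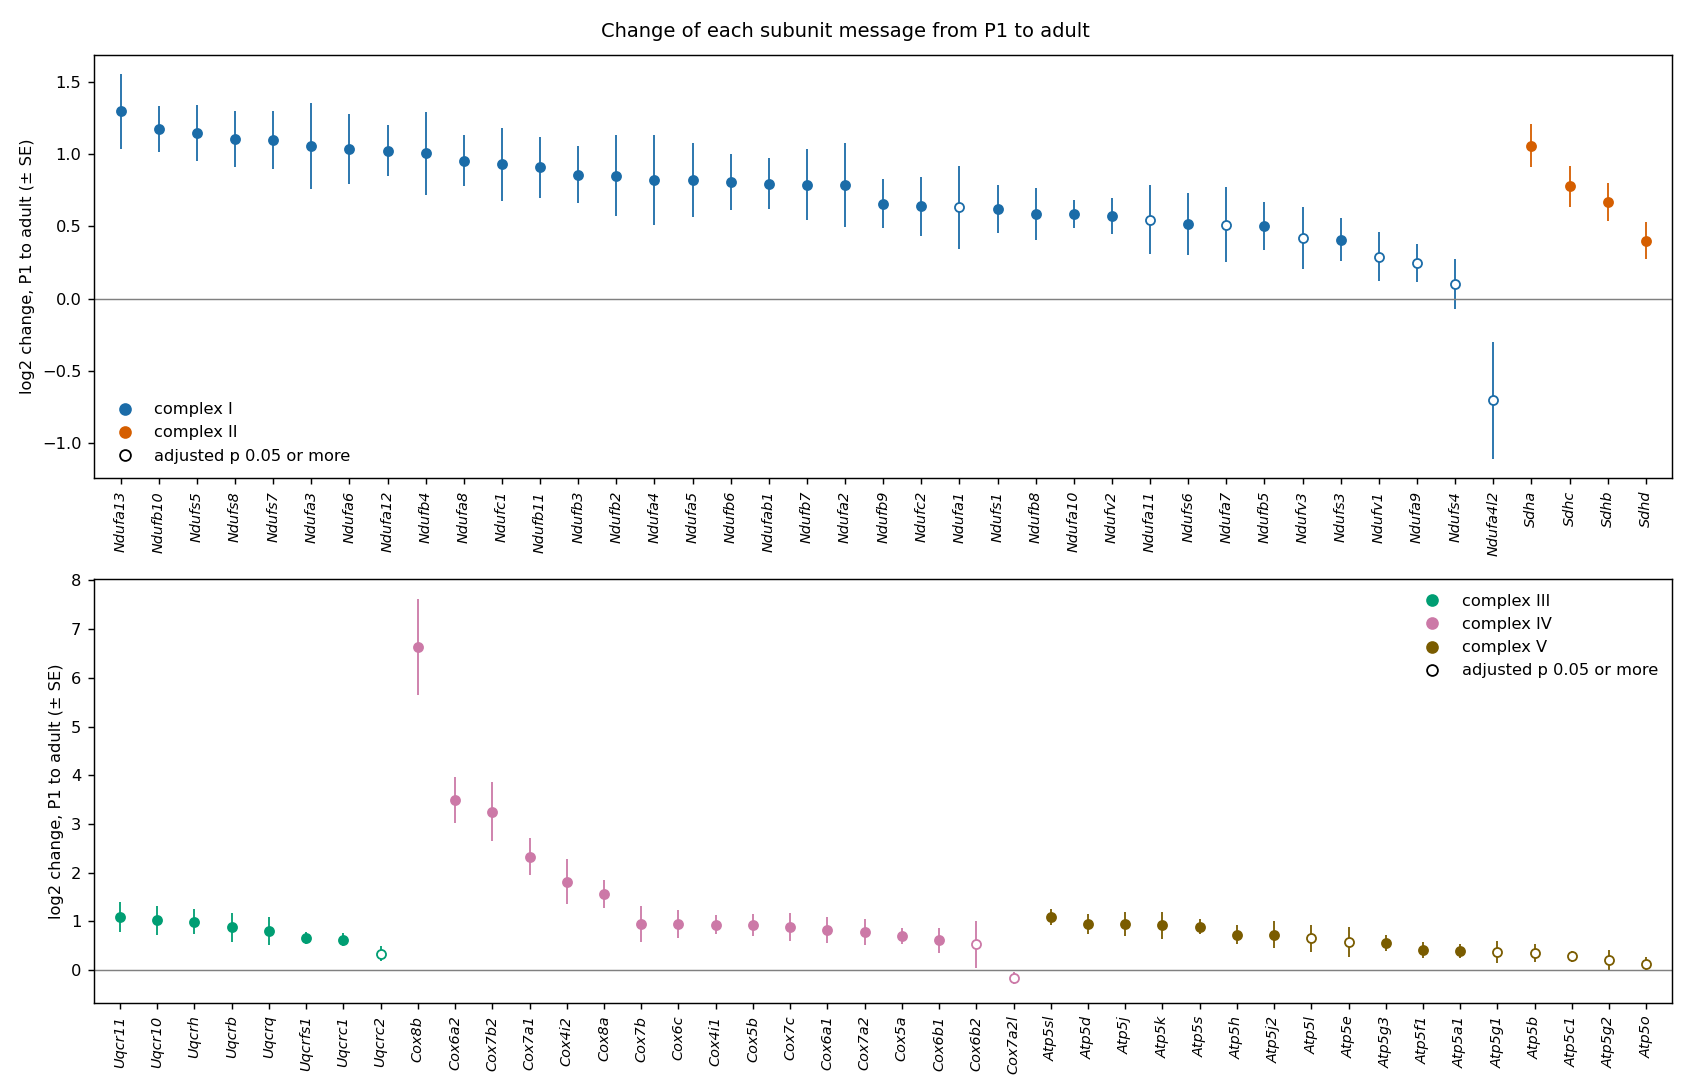
Log2 change from P1 to adult with its standard error for 83 of the 84 members, by complex (8 libraries at P1, 9 in adults); open circles have an adjusted p of 0.05 or more. The 2 panels have different vertical scales, and nearly all members sit above 0, with Cox8b at 6.64 and Ndufa4l2 at -0.71 as the ends.

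Among subunits of complex I, Ndufb10, an accessory subunit of the membrane arm, stood between 115 and 332 CPM at P1 (median 247, n = 8) and between 194 and 1082 CPM in adults (median 504, n = 9). The lowest values at both ages were those of set 3, and the age groups overlapped through that set. Its log2 change was 1.17 ± 0.16 (SE, edgeR adjusted p = 1.26e-07). Ndufa10, another accessory subunit, ran from 167 to 228 CPM at P1 and from 236 to 362 CPM in adults, with no overlap and little spread between sets (log2 change 0.59 ± 0.09, edgeR adjusted p = 2.98e-06). Ndufs5, a small subunit on the intermembrane side, rose from 139 ± 61.3 to 314 ± 188 CPM (SD, edgeR adjusted p = 5.63e-06). The 8 members of complex I that were not called included Ndufv1, which carries the NADH-binding site (0.29 ± 0.17), Ndufs4 (0.10 ± 0.17), Ndufa9 (0.24 ± 0.13) and Ndufv3 (0.42 ± 0.21), beside Ndufa1, Ndufa7, Ndufa11 and Ndufa4l2. Ndufs4, whose loss gives mice a disease like Leigh syndrome, stood between 145 and 312 CPM at P1 and between 132 and 419 CPM in adults. All 8 of its P1 values lay inside the adult range. These non-called members and others below were named after their values were seen. On GRCm38, in GENCODE M21, Ndufb10 lies at chr17:24722060-24724478 and Ndufs4 at chr13:114287795-114388258, both on the minus strand and protein coding.

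All 4 subunits of complex II, which also works in the citric acid cycle, rose. Sdha ran from 108 to 359 CPM at P1 (median 160) and from 247 to 718 CPM in adults (median 346), a log2 change of 1.06 ± 0.15 (edgeR adjusted p = 1.86e-07). Its gene lies at chr13:74322254-74350280 on the minus strand. The high P1 values, 359 and 313 CPM, were those of set 3, and in adults, too, the set 3 libraries were the highest, so Sdha stood apart from most members in the order of the sets. Sdhc and Sdhb, the membrane anchor and the iron-sulfur subunit, changed by 0.78 ± 0.14 and 0.67 ± 0.13. Sdhd, the other anchor, changed least, by 0.40 ± 0.13 (edgeR adjusted p = 0.00996).

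In complex III, Uqcrfs1, the Rieske iron-sulfur protein, stood between 252 and 598 CPM at P1 and between 331 and 870 CPM in adults (0.65 ± 0.12, edgeR adjusted p = 3.40e-05). Uqcr11 ran from 97.8 to 532 CPM at P1 and from 162 to 1850 CPM in adults (1.09 ± 0.31, edgeR adjusted p = 0.00407). Both pairs of age groups overlapped, and in Uqcr11 the set 3 libraries were the lowest at either age. Uqcrc1, a core protein, changed by 0.63 ± 0.14, and Uqcrc2, the other core protein, was not called (0.34 ± 0.15, edgeR adjusted p = 0.0752). In complex V, Atp5d, the delta subunit of the F1 head, rose by 0.95 ± 0.20, and Atp5g3, a gene for the c ring, by 0.56 ± 0.17. Atp5b, the catalytic beta subunit, was not called (0.35 ± 0.18, edgeR adjusted p = 0.132), and neither were Atp5c1, Atp5e, Atp5g1, Atp5g2, Atp5l and Atp5o. The largest change under the Atp5 prefix was that of Atp5sl (1.10 ± 0.17), and Atp5s changed by 0.89 ± 0.15, though neither is known as a structural subunit.

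Complex IV held the largest changes. Cox8a, which has the highest level of all members per kilobase, ran from 159 to 887 CPM at P1 (median 643) and from 425 to 4044 CPM in adults (median 1577), a log2 change of 1.56 ± 0.29 (edgeR adjusted p = 3.27e-05). The ages overlapped through the adult libraries of set 3, the lowest of their age. Among the paralog pairs, Cox4i1 changed by 0.93 ± 0.20 and Cox4i2, the isoform of lung and low oxygen, by 1.82 ± 0.46. Cox5a and Cox5b changed by 0.70 ± 0.16 and 0.93 ± 0.23, Cox6a1 by 0.82 ± 0.27, Cox6b1 by 0.61 ± 0.25 and Cox7a2 by 0.78 ± 0.26. Cox6b2, known from testis, and Cox7a2l, a factor that joins complexes III and IV, were not called (0.53 ± 0.49 and -0.16 ± 0.12).

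Cox6a2, Cox7a1 and Cox8b, isoforms of heart and muscle, rose from very low levels, as did Cox7b2, an isoform known from testis. Cox6a2, on chr7:128205435-128206387 (GENCODE M21), stood between 0 and 2.75 CPM at P1 (median 0.418) and between 2.17 and 36.8 CPM in adults (median 3.04), a log2 change of 3.49 ± 0.48 (edgeR adjusted p = 1.14e-07). Cox7a1 on chr7:30184144-30186078 stood between 0.270 and 7.17 CPM at P1 and between 2.83 and 24.5 CPM in adults (2.32 ± 0.38, edgeR adjusted p = 3.44e-06). Cox7b2 stood between 0 and 0.809 CPM at P1 and between 0.971 and 7.19 CPM in adults (3.25 ± 0.61, edgeR adjusted p = 3.19e-05). The age groups overlapped in Cox6a2 and Cox7a1 but not in Cox7b2. Cox8b on chr7:140898945-140900446 had 5 counts in all at P1, with 5 of 8 libraries at 0, and 551 counts in adults, with none at 0. As shares of all counts this was a 99.6-fold higher level, with an exact 95% interval of 42.4 to 308 that covers counting error only, and the fitted log2 change of 6.64 ± 0.99 depends on the prior count. As shares of a family's summed CPM per kb of exon, adults had 99.7% of Cox8 from Cox8a and 0.274 ± 0.192% from Cox8b, and Cox6a2 made up 0.704 ± 0.754% of Cox6a (SD, n = 9). On the same scale, the share of the Cox7a family taken by Cox7a1 went from 0.703 ± 0.375% at P1 to 2.24 ± 0.547% in adults, while that of Cox7a2l went from 25.2 ± 4.45% to 16.0 ± 4.45%. These shares were not tested.

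Within an age, Cox6a2 was far higher in a few libraries. At P14 it stood at 47.3 CPM in female 6 and 34.0 CPM in male 4, against 2.24 to 7.30 CPM in the other 8. At P7 it stood at 32.1 CPM in male 6, at P35 at 63.8 CPM in female 6, and in adults at 36.8 CPM in male 60 and 18.0 CPM in female 4. Cox6a2 is known in brain from parvalbumin interneurons and in the body from striated muscle. In these 6 libraries Pvalb stood at 39.5 CPM in P14 male 4 and between 80.9 and 301 CPM in the rest. The 7 parvalbumin interneuron markers summed to between 162 and 474 CPM, and the striated muscle markers to between 39.1 and 88.3 CPM. Most of the muscle sum came from Acta1 (27.7 to 34.4 CPM) and Tcap (5.35 to 54.1 CPM), with Ckm at 1.11 CPM or less. Parvalbumin values also reached into this range where Cox6a2 was low. The list summed to 251 CPM in adult male 3 (Cox6a2 4.41 CPM). Pvalb stood at 53.4 CPM in P35 female 4 (Cox6a2 6.98 CPM), its highest value outside these 6 libraries. The highest muscle sum outside these 6 libraries was 29.2 CPM, in P35 female 4. In adults the parvalbumin list summed to 88.9 to 440 CPM, and at P1 to 31.7 to 126 CPM. Of its 7 markers 4 rose from P1 to adult. Of the 6 striated muscle markers measured, 4 rose and Tnnt3 fell, and their sums ran from 5.36 to 19.9 CPM at P1 and from 12.0 to 55.3 CPM in adults. Tcap reached 54.1 CPM in P35 female 6, where Ckm stood at 0.232 CPM, and over all libraries 15 had no count of Ckm. The part of such cells in the changes of Cox6a2, Cox7a1 and Cox8b was not tested. Pvalb in P7 male 6 stood at 82.6 CPM, against 2.09 CPM or less in the other P7 libraries. At P14, Pvalb was lowest in male 6, at 3.55 CPM. Summed oligodendrocyte markers were also highest at P7 in male 6 (3060 CPM, median 345) and lowest at P14 in male 6 (327 CPM, median 1072). Whether the age labels of P7 male 6 and P14 male 6 were exchanged was not tested.

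**Figure D2:**
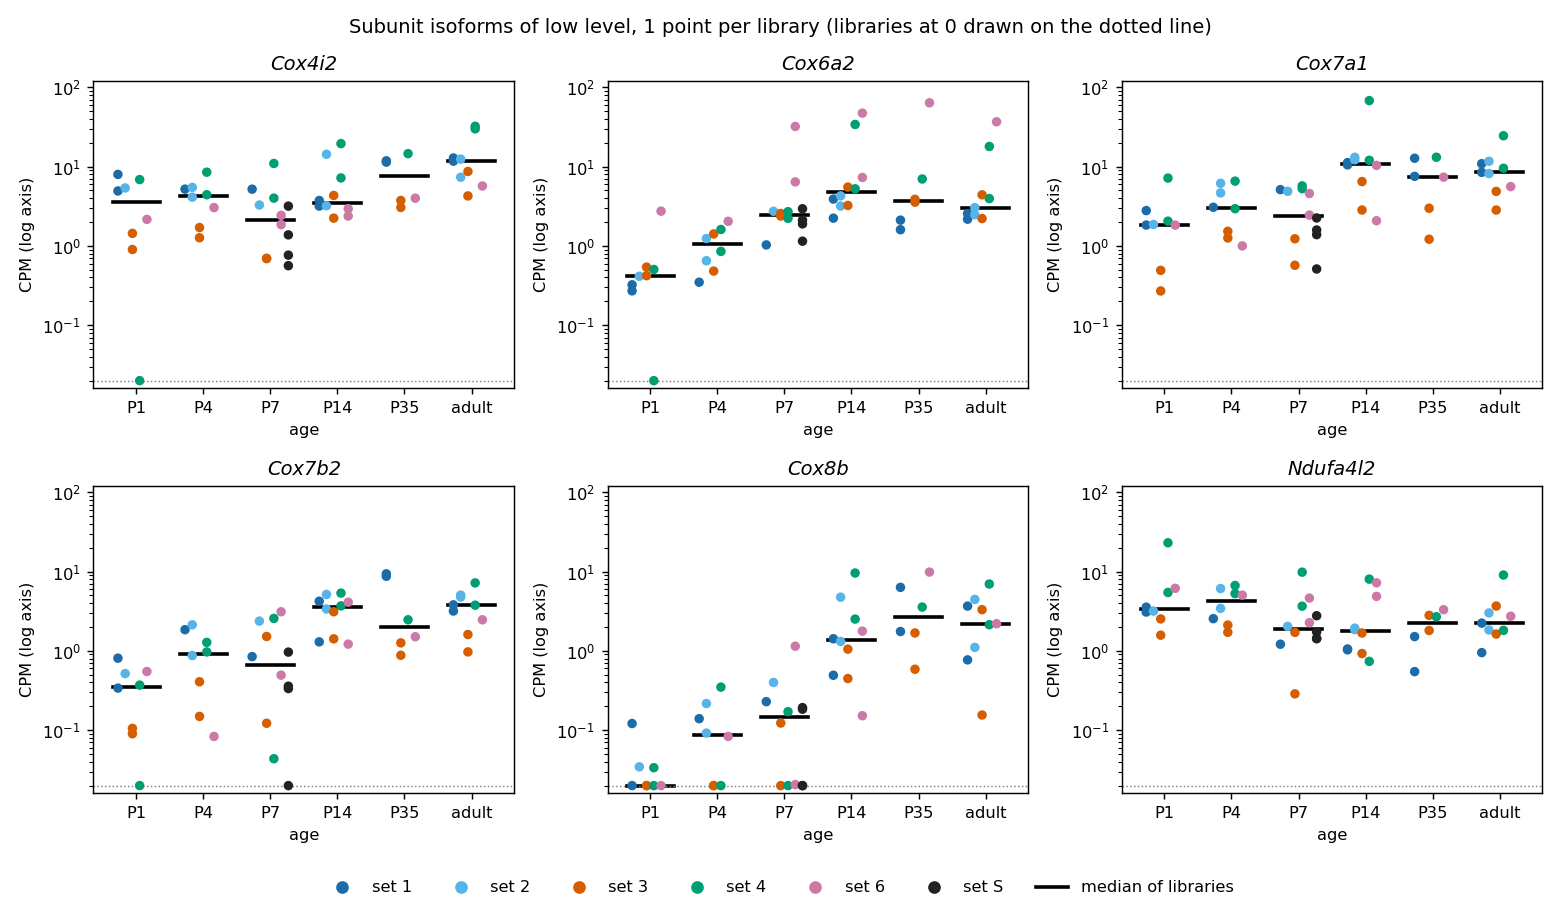
Levels of 6 low isoforms in CPM on a log axis at each age, 1 point per library coloured by replicate set, with black bars for medians; libraries with no count sit on the dotted line. Cox8b goes from 5 of 8 libraries at 0 at P1 to none at 0 from P14 on, and the Cox6a2 values above 15 CPM come from sets 4 and 6.

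The joint test over the 6 ages called 71 of 84 members (84.5%), beside 43.5% of all genes. Per complex these were 31 of 38, 4 of 4, 7 of 8, 16 of 17 and 13 of 17. The smallest adjusted p was that of Ndufb10 (edgeR, 6.33e-09). Without the replicate set in the model the joint test called 20 members, and no count over all genes is given here for that fit. Cox7a2l was called here (edgeR adjusted p = 0.0146) though not from P1 to adult: its mean went from 185 CPM at P1 to 220 at P14 and 166 in adults.

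The step from P7 to P14 held most of the calls between neighbouring ages. It had 11 members called upward (13.1%), beside 1.65% of all genes called upward, and the median member changed by 0.53 against -0.02 for all genes. These were 7 of complex I (Ndufb10, Ndufb9, Ndufa12, Ndufa8, Ndufb8, Ndufb11 and Ndufa3), Sdhc of complex II, and Cox7a1, Cox4i1 and Cox8b of complex IV. Ndufb10 ran from 78.4 to 496 CPM at P7 (median 193, n = 12) and from 208 to 1076 CPM at P14 (median 488, n = 10). The age groups overlapped, with sets 3 and S at the low end of P7 and P14 male 4 far above the rest. The change was 0.77 ± 0.17 (edgeR adjusted p = 0.00674), and that of Cox7a1 was 1.67 ± 0.38 (edgeR adjusted p = 0.00999). Cox4i1, the widespread isoform of its subunit, changed by 0.79 ± 0.20 (edgeR adjusted p = 0.0184). The count of this step moved with the libraries used. It was 0 without the replicate set in the model and without P7 male 2, 34 without P14 male 6, 23 without P7 male 6 and 4 without P14 male 4. It was 6 without P14 female 3, 5 without P7 female 4, and 7 without P7 female 3 or P7 female 6. Upward calls over all genes moved too, from 349 with all libraries to 59 without P7 male 2. They were 630 without P14 male 6, 636 without P7 male 6 and 206 without P14 male 4. As given above, Pvalb and the oligodendrocyte sum were highest of their age in P7 male 6 and lowest in P14 male 6. Among all genes called in this step, 349 were higher and 348 lower at P14, while 64.3% were higher with the size factors of DESeq2 and 36.2% with library totals alone.

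After P14 the members were lower at P35. The median change was -0.37 (all genes -0.03; -0.16 without the 3 libraries with few genes), and 77 of 84 had a negative estimate, but 2 were called (2.38%, beside 0.81% of all genes called downward). Atp5g3 ran from 856 to 5359 CPM at P14 (median 1574, n = 10) and from 433 to 1697 CPM at P35 (median 884, n = 6), a change of -0.83 ± 0.18 (edgeR adjusted p = 0.0164). Sdhd ran from 262 to 649 CPM at P14 and from 174 to 515 CPM at P35 (-0.58 ± 0.14, edgeR adjusted p = 0.0264). The ages overlapped in both. Neither was called without the replicate set in the model, without the 5 libraries whose description carries the other letter, or without P35 male 10, P35 male 3, P35 female 3 or P35 female 6, and 1 of them was called without P14 female 1 or P14 female 3. Over all genes, 46 to 556 were called from P14 to P35, in either direction, with 1 library left out. The other steps had 0 members called in edgeR: from P1 to P4 (6 at an unadjusted p under 0.05, 0 in DESeq2 and voom), from P4 to P7 (6, with 1 in DESeq2, 0 in voom, and 1 in edgeR without P4 female 2 or P7 female 6) and from P35 to adult (9, with 0 in DESeq2 and voom). All genes called in these steps were 0.44%, 1.67% and 0.0%. Their median member changes were 0.22, 0.16 and 0.23, and that from P4 to P7 was -0.01 without the 5 libraries with the other letter. Over all genes, 352 were called from P4 to P7 with all libraries, and 31 without P7 male 6.

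**Figure D3:**
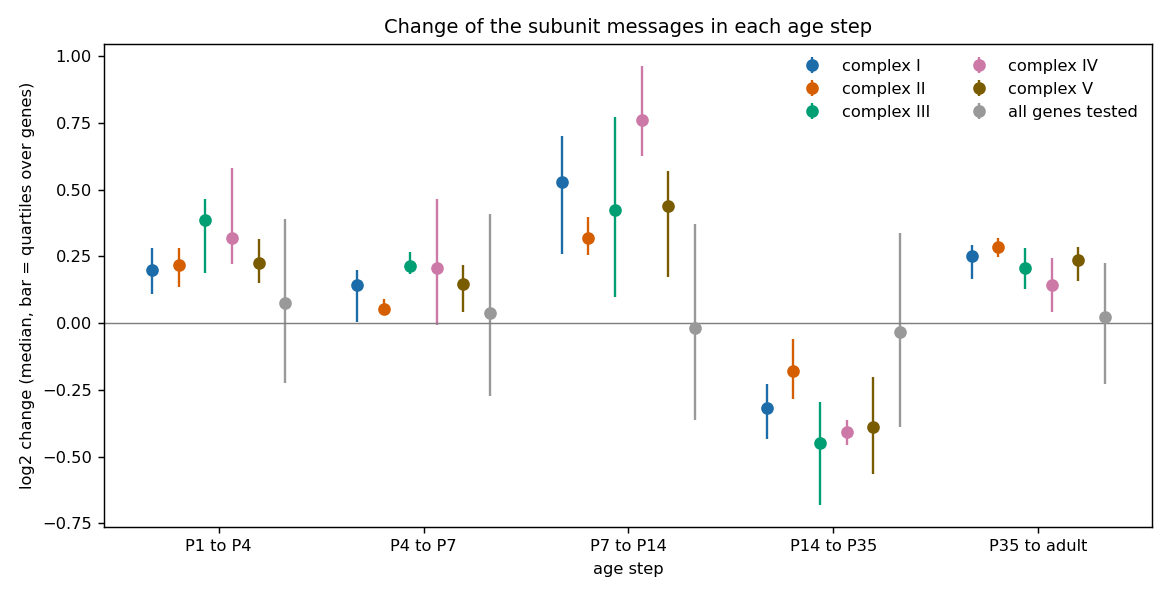
Median log2 change of the members of each complex and of all genes tested in each step between neighbouring ages; bars are the quartiles over genes and not errors. Complexes I to V lie above 0 from P7 to P14 (medians 0.32 to 0.76) and below 0 from P14 to P35 (-0.18 to -0.45), while all genes stay near 0.

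Levels of the members also differed between replicate sets. With age and sex in the model and set 1 as the reference, 67 members were lower and 8 higher in set 3 (median log2 difference -0.98), and 64 were lower and 5 higher in set S (-1.23). Set S rests on P7 libraries of the second run alone, so set and run cannot be told apart there. In set 4, 59 were higher and 1 lower (0.69), in set 6, 8 were higher and 5 lower (0.09), and in set 2 none was called in edgeR. Over all 21118 genes, 5953 were higher and 5230 lower in set 3, 3022 and 3856 in set S, 2019 and 1752 in set 4, 3627 and 3613 in set 6, and none in set 2. Other lists moved with the sets. In set 3, 78 of 89 cytosolic ribosomal proteins and 18 of 18 mature astrocyte markers were lower and 16 of 16 neuronal markers higher (median 2.08), and in set 4, 79 ribosomal proteins were higher. In set 6, 18 astrocyte markers were lower (median -2.43) and 14 neuronal markers higher. The part of these cells in the members' levels was not tested, nor is it known from the labels what the number marks.

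**Figure D4:**
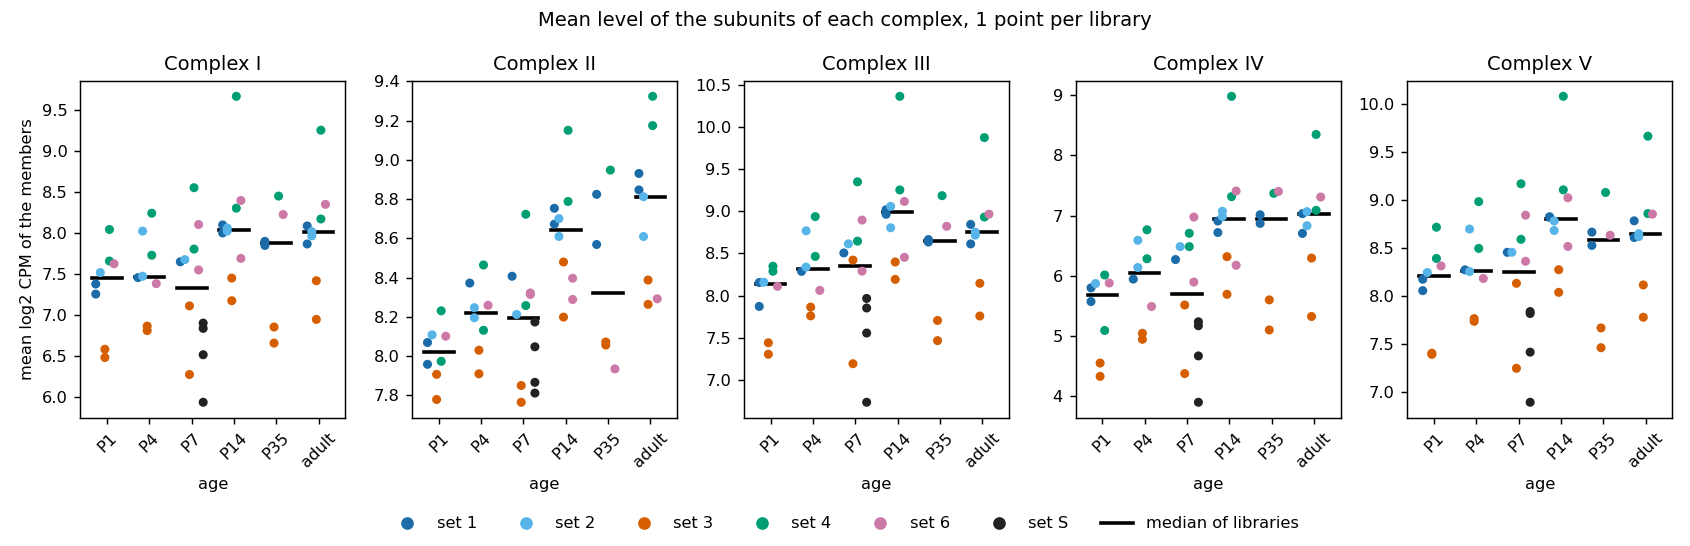
Mean log2 CPM of the members of each complex in each library, by age, coloured by replicate set, with black bars for the median of the age; each panel has its own vertical scale. At P1 and P4 the 2 lowest libraries are those of set 3 in every panel, and P14 male 4 of set 4 is the highest library at P14 in all 5. Low isoforms weigh in the mean of complex IV as much as its other members.

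Within single sets the members were also higher in adults than at P1. In set 1, 83 of 84 were higher in adults (median 0.69), in set 2, 79 (0.50), in set 3, 80 (0.64), in set 4, 82 (0.94) and in set 6, 74 (0.84). These rest on 1 or 2 libraries an age, so no test was made within a set. For all genes of at least 1 CPM the median was between -0.04 and 0.04 in sets 1, 2, 3 and 6, and 0.68 in set 4. Of these genes 51.6, 51.7, 48.7, 63.5 and 48.6% were higher in adults in sets 1, 2, 3, 4 and 6. Set 4 includes P1 female 4, the library with the fewest genes of at least 10 counts. In set 6, complex II stood apart, with a median of 0.04 and 2 of 4 members higher. Over the 5 sets, 68 members were higher in adults in every set and 13 in 4 sets. The exceptions were Ndufs4 (3 sets), Cox7a2l (2 sets) and Ndufa4l2 (1 set). From P14 to P35, the median was negative in sets 1, 3 and 4 (-0.20, -0.70 and -0.59) and positive in set 6 (0.23), and set 2 had no P35 library.

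**Figure D5:**
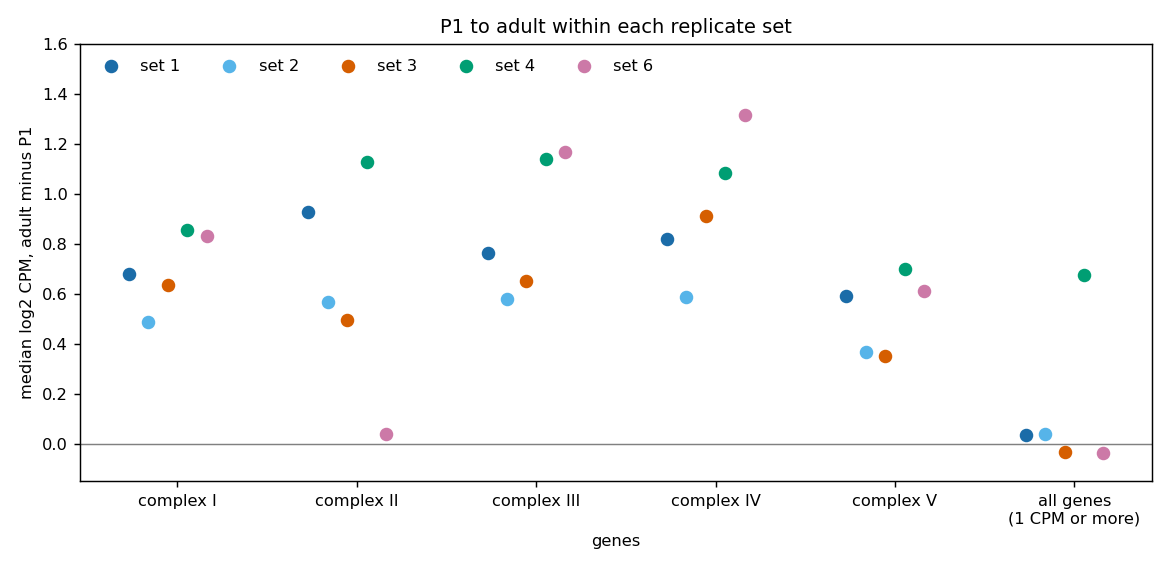
Median log2 CPM difference, adult minus P1, over the members of each complex and over all genes of at least 1 CPM, within each replicate set (1 or 2 libraries an age). All 25 points of the complexes lie above 0, the lowest being complex II in set 6 at 0.04.

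Members with fewer annotated exon bases rose more. This length, taken over all transcripts of a gene, is not the length of the message. Exon length and log2 change from P1 to adult had a Spearman rho of -0.42 across the 84 members, and -0.36 across the 77 with at least 20 CPM, against -0.002 across 8110 genes of that level. Genes share libraries and are not independent, so this is a description. Of the 42 members at or under the median length of 1578 bases, 37 were called upward (median 0.89), and of the 42 longer ones 29 (median 0.62). Among the 856 genes of at least 20 CPM at or under that length, 31.5% were called upward, at a median of 0.03.

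Genes that work with the members were set beside them, from lists chosen with earlier results known. Subunits encoded by mitochondrial DNA, which are made on mitochondrial and not on the tagged ribosomes, had no edgeR adjusted p under 0.198 from P1 to adult among 13. Their median change was 0.36, and their summed level ran from 35.5 to 827 CPM at P1, the highest being P1 female 4, and from 83.3 to 301 CPM in adults. Of 43 assembly factors, 17 rose and 3 fell (median 0.35), led by Cox17, a copper chaperone of complex IV, at 2.03 ± 0.31, Surf1 at 0.77 ± 0.15 and Lyrm7 at 0.96 ± 0.21. Of 14 electron carriers and ubiquinone genes, 7 rose and 1 fell (median 0.25), including Coq9 at 1.35 ± 0.15, Coq2 at 1.43 ± 0.21 and Cycs, cytochrome c, at 0.90 ± 0.15. Of 17 genes of pyruvate dehydrogenase and the citric acid cycle, 12 rose (median 0.52), with Idh3b at 1.27 ± 0.14 and Suclg1 at 1.16 ± 0.16.

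Of 8 regulators of nuclear genes for mitochondria, Esrra (1.69 ± 0.18), Ppargc1a (1.44 ± 0.24) and Ppargc1b (2.51 ± 0.38) rose and Nrf1 fell (-1.07 ± 0.15). Mitochondrial ribosomal proteins rose in 25 and fell in 2 of 76 (median 0.20), with Mrps25, Mrps36 and Mrpl24 at 0.83 ± 0.12, 0.94 ± 0.18 and 0.73 ± 0.14. Cytosolic ribosomal proteins went the other way, with 1 up and 57 down of 89 (median -0.65), led by Rplp0 (-1.28 ± 0.17), Rpl22 (-1.04 ± 0.14) and Rpl10 (-1.02 ± 0.15). Between sets 3 or 4 and set 1, by contrast, members and cytosolic ribosomal proteins differed in the same direction. Markers of cell types moved with age as well. Mature astrocyte markers rose in 17 of 18 (median 2.14), neuronal markers rose in 12 and fell in 2 of 16 (1.75), oligodendrocyte markers rose in 10 of 10 (3.75), and microglia markers in 3 of 9. The part of these changes in the rise of the members was not tested.

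Between the labelled sexes, 0 of 84 members differed in edgeR as a mean over the ages, with 0 at an unadjusted p under 0.05 and 0 in DESeq2 and voom, beside 0.0284% of all genes. The median difference, female minus male, was 0.05, and the widest were those of Cox7b2 (-0.50) and Cox8b (-0.40). The age course differed between the sexes in 0 members (0 at an unadjusted p under 0.05, 0 in DESeq2 and voom), beside 0.0% of all genes. These are comparisons of labelled groups, 5 of whose libraries carry the other letter.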

How the data were processed

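The table holds 53 libraries, 1 per animal, of ribosome-bound RNA from cortex. The deposited values are counts per gene, not normalized, for 21118 genes; per the submitters' processing notes the authors used CASAVA, HISAT2, SAMtools and featureCounts on GRCm38.p5, with no version, annotation release or strand setting named. Per the labels, 4 animals at P7 were sequenced 2 times, and each has 1 column. Nothing in the labels says more of how animals were paired. The p-values of the main fit measure the spread between these libraries that age, labelled sex and replicate set leave over.

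The counts entered edgeR's quasi-likelihood test (edgeR 4.0.16, R 4.3.3, TMM scaling, robust) in 1 fit of 12 groups of age and labelled sex plus 6 replicate sets, with Benjamini-Hochberg adjustment over all genes. Scores are mean log2 CPM with a prior count of 2, in which every member weighs the same. Gene positions and exon lengths come from GENCODE M21. The members and lists were chosen with earlier results of these data known. Named members are up to 3 of each complex and 2 of each age step by adjusted p, the 2 highest per kilobase, and all paralog families; of each list, up to 3 genes by adjusted p. Some single genes are counted but not reported here by name. Alternatives were DESeq2 1.42.0, voom of limma 3.58.1, other scalings and filters, no replicate set, age alone, and libraries left out. On simulated data for P1 to adult with 6000 genes, 67 of 100 genes changed by a log2 of 1 and 100 of 100 changed by 2 were called, and 11 of 5800 unchanged genes. The total counts of at least 14768178 limit the precision of members under 15 CPM, of which there are 7.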

Additional observations from a re-analysis of the deposited data

Results flagged for a closer look

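Groups of an age and labelled sex with 4 to 8 libraries were tested. The 130 tests asked whether the highest or lowest library lay far from the rest, and chance flags about 1 in 20 groups. No complex score did so. The P35 groups, of 3 libraries each, were under that size, so no P35 library could be flagged. Values here are log2 CPM. Cox6a2 was far above the rest of its group in adult female 4 (4.17, next 1.64), adult male 60 (5.20, next 2.17), P14 female 6 (5.57, next 2.41), P14 male 4 (5.09, next 2.88) and P7 male 6 (5.01, next 1.59). Cox4i2 was far above in P14 male 4 (4.29, next 1.93) and far below in P4 male 3 (0.43, next 2.07). Cox7a1 was far below in P1 male 3 (-1.52, next 0.93) and Cox7b2 in P14 female 1 (0.46, next 1.67). Cox8b was far above in P1 female 1 (-2.32, next -3.66), which rests on 3 counts against 0 in the others.

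Among the marker lists, the mean of the mature astrocyte markers was far below the rest in adult male 60 (6.96, next 8.75) and P14 female 6 (6.73, next 8.66). The mean of the neuronal markers was far above in P1 male 3 (7.61, next 5.83) and P4 male 3 (8.03, next 6.19), and far below in P7 male 2 (6.66, next 8.50).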

How the results depend on the processing

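Without the replicate block, with the second run kept as a term, 27 members were called from P1 to adult, 20 over the 6 ages, 0 from P7 to P14 and 0 from P14 to P35. The deviations of libraries with the same number had a median r of 0.46 over 223 pairs, 209 of them over 0.1, and those of libraries with different numbers a median of -0.12 over 1055 pairs, 311 of them over 0.1. The labels do not say what a number marks. From P7 to P14, 19 were called with the size factors of DESeq2 in edgeR, 7 with library totals, 31 in DESeq2, 21 among genes with a mean of at least 1 CPM, 1 without the 5 libraries with the other letter, and 26 with age alone. From P4 to P7, 1 was called with library totals, in DESeq2, among genes of at least 1 CPM and without the 3 libraries with few genes. From P14 to P35, 1 was called with library totals and 0 without the 5 libraries with the other letter. With 1 library left out at a time, counts ran from 45 to 68 (P1 to adult), 62 to 73 (6 ages), 0 to 34 (P7 to P14), 0 to 3 (P14 to P35) and 0 to 1 (P4 to P7), and the difference of complex scores, adult minus P1, from 0.53 to 0.82 (I), 0.65 to 0.78 (II), 0.63 to 0.90 (III), 1.32 to 1.70 (IV) and 0.45 to 0.68 (V). The cause was not tested. In the complex IV score the low isoforms Cox8b, Cox6a2, Cox7b2 and Cox7a1 weigh as much as abundant members. Their log2 changes from P1 to adult were 6.64, 3.49, 3.25 and 2.32, while the median over complex IV was 0.93. Library totals moved the median of all genes from P1 to adult by -0.12, from 0.06 to -0.06, and that of the members from 0.79 to 0.67. From P1 to adult, other settings called 57 to 72 members. No counts over all genes are given here for these settings or for the fit without the block. A shift in the number of members called can thus not be told from a shift over all genes. Of 36 named members, 21 kept their side of the threshold without the block, and none reversed. The sex by age test was not repeated with libraries left out. Members under 15 CPM are limited by depth.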
